A study of Mus musculus with 9 samples.

Results

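The 32 genes described here encode receptors for glutamate, the main excitatory transmitter of the brain, together with proteins that escort or anchor these receptors at the postsynaptic membrane. They were taken by symbol from the 53465 genes of the deposited expression table, and all 32 were found there. They comprise 4 subunits of AMPA receptors, 6 of NMDA receptors, 5 of kainate receptors, 6 metabotropic receptors, the delta subunit Grid1, 5 auxiliary proteins of AMPA receptors and 5 scaffold proteins. RNA from mouse ventral hippocampus, labelled as freshly isolated, was sequenced in bulk in 9 libraries, 3 in each of 3 groups. The group CRS-WT-DR5-12D is labelled wild type and its label adds DR5-12D. In CRS-NKAα1+/- the label marks the loss of 1 copy of NKAα1, the α1 subunit of the Na,K-ATPase that pumps sodium out of cells. The group CRS-WT is wild type with neither change. All 3 groups carry CRS in their labels, which spell out neither CRS nor DR5-12D, and animals without CRS were not analysed here. The labels give no sex, age, strain background or animal of origin, so each p-value reflects only how far these libraries scatter, and that scatter may be technical.

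At most excitatory synapses of the forebrain, AMPA receptors carry the fast current, and NMDA receptors open only when glutamate is bound and the membrane is already depolarised, which lets calcium in and starts synaptic plasticity. Kainate receptors act on both sides of the synapse, and metabotropic receptors signal through G proteins rather than through a channel pore. Auxiliary proteins such as the transmembrane AMPA receptor regulatory proteins (TARPs) and the cornichons decide how many AMPA receptors reach the surface and how they gate. The scaffolds Dlg4, the Shank proteins and Homer2 hold receptors and their signalling partners in the postsynaptic density. The hippocampus is a region where this kind of plasticity has long been studied.

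Values are FPKM, fragment numbers corrected for library size and gene length. The summed FPKM differed between libraries, from 336555 in CRS-WT 2 to 540317 in CRS-NKAα1+/- 1. Differences between libraries therefore depend on the scaling, and other scalings are given below. Multiplied back by gene length and by 1 number per library they give whole fragments, at implied depths of 15117451 to 27323379 fragments. All 32 genes had a mean of at least 0.5 FPKM and were tested, as were 17753 genes in all. In 3 libraries, CRS-WT-DR5-12D 1 and CRS-NKAα1+/- 1 and 2, 6 of 9 listed genes of dentate gyrus granule cells were below all other libraries, while Calb1, Stxbp6 and Trpc6 overlapped. The summed level of the 9 genes was 39.8 to 49.1 FPKM in the 3 libraries, against 82.5 to 114 FPKM in the other 6, and C1ql2, the one with the highest level in the other libraries, was at 0.596 to 0.973 FPKM in the 3 libraries, against 23.6 to 40.1 FPKM in the other 6. Of 5 CA1 genes 3 were below all other libraries in these 3, among them Fibcd1 at 1.49 to 1.86 FPKM in the 3 libraries, against 20.8 to 29.2 FPKM in the other 6. Mpped1, also a CA1 gene, was above at 53.0 to 62.9 FPKM in the 3 libraries, against 38.7 to 51.6 FPKM in the other 6, Wfs1 was at 25.0 to 43.9 FPKM in the 3 libraries, against 10.5 to 25.2 FPKM in the other 6, and the sum of the 5, with 97.5 to 113 FPKM in the 3 libraries, against 112 to 132 FPKM in the other 6, overlapped. Of 7 CA2 and CA3 genes Rgs14, Iyd and Hs3st4 were below, Tyro3 was above, and the sum overlapped. The sum of 6 genes of cortical neurons was 112 to 147 FPKM in the 3 libraries, against 31.4 to 40.8 FPKM in the other 6. Lamp5 alone was at 64.5 to 97.2 FPKM, against 12.2 to 15.9 FPKM, and of the 6 only Fezf2 overlapped. The sum of 7 pan-neuronal genes was 889.8 to 989 FPKM in the 3 libraries, against 666 to 769 FPKM in the other 6, while Map2, Tubb3 and Stmn2 overlapped. No listed marker of these cell classes was at 0 in any of the 9 libraries. These libraries are called low-dentate below. They were chosen by the granule cell genes and not by any of the 32 genes described here, some of which also set them apart. The 3 low-dentate libraries cross the groups, with 1 in CRS-WT-DR5-12D, 2 in CRS-NKAα1+/- and 0 in CRS-WT, so group values are given with and without them. In bulk tissue, fewer cells of a type and less RNA per cell cannot be told apart.

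None of the 32 genes passed the test in any comparison of groups. Group differences were tested with limma on log2(FPKM + 1) over all 9 libraries, with Benjamini-Hochberg adjustment over all 17753 genes and a threshold of 0.05. In CRS-NKAα1+/- against CRS-WT, 0 of 32 rose, where 0.0225% of all genes did, and 0 of 32 fell, where 0% of all genes did. In the group with DR5-12D set against CRS-WT, 0 of 32 rose (0.0282% of all genes) and 0 of 32 fell (0% of all genes). With CRS-WT-DR5-12D set against CRS-NKAα1+/-, 0 of 32 rose (0.0113% of all genes) and 0 of 32 fell (0.501% of all genes). A moderated F-test for any difference among the 3 groups called 0 of 32, where it called 0.27% of all genes, and at an unadjusted p under 0.05 it gave 1 of 32, Grin2c, beside 13.7% of all genes. With so few calls among all genes, a count of 0 among 32 says little about these genes in particular, and it does not show that their levels were equal.

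**Figure D1:**
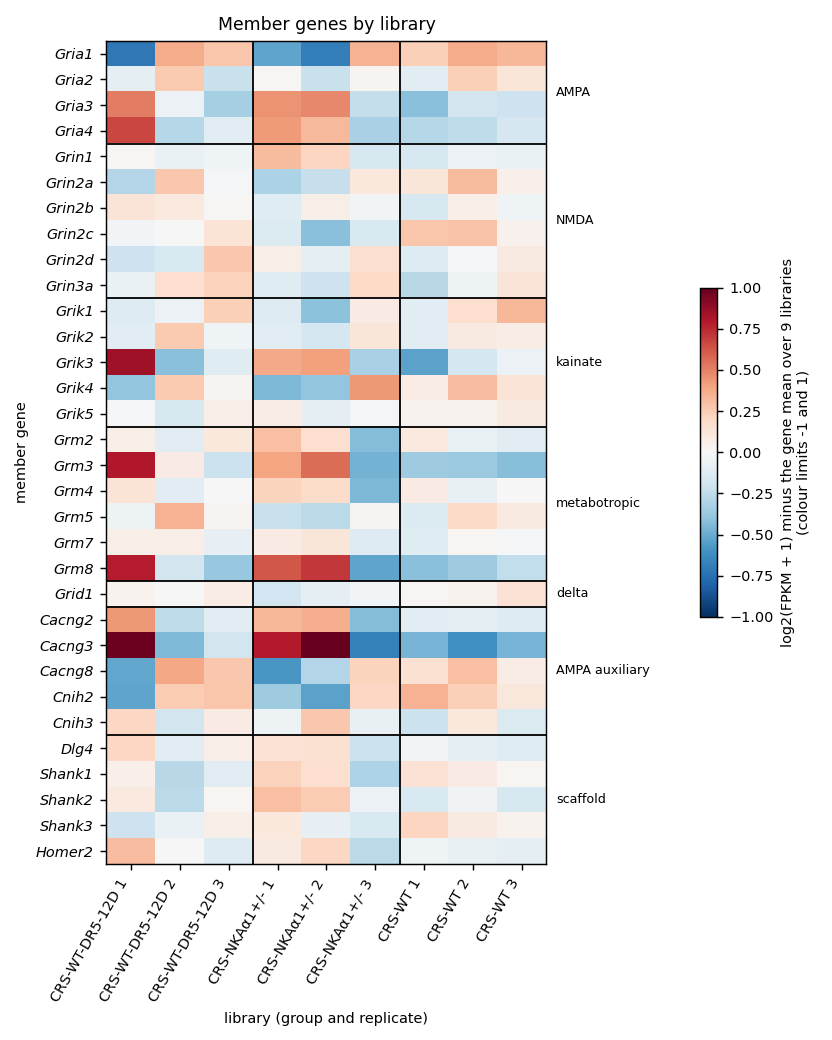
Levels of the 32 genes (down the page, in their 7 subsets) in each of the 9 libraries (columns, by group), as log2(FPKM + 1) minus the mean of the gene over the 9 libraries, with red above and blue below that mean and colours limited to −1 and 1. CRS-WT-DR5-12D 1 and CRS-NKAα1+/- 1 and 2 share a pattern, with Cacng3, Grm3 and Grm8 high and Gria1, Cacng8 and Cnih2 low, which the other 6 libraries do not show.

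Of the AMPA receptor subunits Gria1 and Gria2 were among the most abundant members and Gria4 was not, and their proportions differed between libraries more than between groups. Gria1, whose subunit is delivered to synapses during plasticity, stood at 59.6, 128 and 119 FPKM in CRS-WT-DR5-12D libraries 1 to 3, 67.9, 60.7 and 126 FPKM in CRS-NKAα1+/- and 117, 128 and 125 FPKM in CRS-WT. It was low in the 3 low-dentate libraries and lay within 117 to 128 FPKM in the other 6, which belong to all 3 groups. Gria2, which makes the channel almost impermeable to calcium, stood at 47.2, 60.8 and 43.1 FPKM in CRS-WT-DR5-12D, 50.9, 43.2 and 51.5 FPKM in CRS-NKAα1+/- and 46.6, 59.9 and 55.0 FPKM in CRS-WT, and all 3 groups overlapped. Gria3, another subunit of adult forebrain receptors, stood at 34.9, 23.2 and 19.0 FPKM in CRS-WT-DR5-12D, 33.4, 34.0 and 20.3 FPKM in CRS-NKAα1+/- and 17.8, 21.1 and 20.9 FPKM in CRS-WT. Gria4, which is prominent in fast-spiking interneurons, stood at 17.9, 8.77 and 10.1 FPKM in CRS-WT-DR5-12D, 15.0, 13.9 and 8.51 FPKM in CRS-NKAα1+/- and 8.74, 8.95 and 9.57 FPKM in CRS-WT. Both were high in the 3 low-dentate libraries and alike in the other 6, though after rescaling to TPM neither was above all of the other 6.

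Shares of the summed FPKM of the 4 AMPA subunits are the same in FPKM and in TPM. Gria1 made up 37.4 to 40.6% in the 3 low-dentate libraries, against 57.9 to 62.3% in the other 6. The share of Gria2 was 28.5 to 30.4% in the 3 low-dentate libraries, against 22.5 to 27.6% in the other 6, that of Gria3 19.97 to 22.4% in the 3 low-dentate libraries, against 9.41 to 10.5% in the other 6, and that of Gria4 8.96 to 11.2% in the 3 low-dentate libraries, against 3.98 to 5.25% in the other 6. Gria1 was thus the leading subunit in all 9 libraries, and in the low-dentate ones it gave way in share to each of the other 3 subunits. The ratio of Gria1 to Gria3 was 1.71 to 2.04 in the 3 low-dentate libraries, against 5.504 to 6.53 in the other 6, and the ratio of Gria1 to Gria2 was 1.26 to 1.40 in the 3 low-dentate libraries, against 2.10 to 2.77 in the other 6. By group, Gria1 made up 52.5 ± 13.3% in CRS-WT-DR5-12D, 47.2 ± 11.9% in CRS-NKAα1+/- and 59.8 ± 1.41% in CRS-WT (SD, n = 3 each), and the CRS-WT range lay inside that of the other 2 groups together.

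Among the auxiliary proteins of AMPA receptors the TARPs divided most sharply. Cacng8, the TARP best known for its abundance in hippocampus, stood at 16.1, 30.9 and 28.5 FPKM in CRS-WT-DR5-12D, 15.4, 18.9 and 27.5 FPKM in CRS-NKAα1+/- and 26.1, 29.2 and 24.7 FPKM in CRS-WT. Cacng3, a TARP of the same subfamily found widely in cortex, stood at 49.5, 17.9 and 21.6 FPKM in CRS-WT-DR5-12D, 43.4, 52.9 and 15.0 FPKM in CRS-NKAα1+/- and 17.5, 15.8 and 17.6 FPKM in CRS-WT. Cacng8 was low and Cacng3 high in each of the 3 low-dentate libraries, and both positions held after rescaling to TPM and after quantile normalization. Cacng2, or stargazin, which traffics AMPA receptors in many brain regions, was at 22.3 to 24.0 FPKM in the 3 low-dentate libraries, against 12.7 to 16.3 FPKM in the other 6, ranges that overlapped after rescaling to TPM. The ratio of Cacng8 to Cacng3 was 0.325 to 0.358 in the 3 low-dentate libraries, against 1.32 to 1.85 in the other 6, so that the order of these 2 TARPs turned between the 2 sets of libraries. Cacng2 kept a share of 22.9 to 27.5% of the 3 TARPs in all 9 libraries.

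Cnih2, a cornichon that slows the closing of AMPA receptors, had the highest mean of the 32 genes over the 9 libraries, although Dlg4 was above it in CRS-WT-DR5-12D 1, and stood at 139, 238 and 242 FPKM in CRS-WT-DR5-12D libraries 1 to 3, 156, 138 and 231 FPKM in CRS-NKAα1+/- and 255, 236 and 216 FPKM in CRS-WT. It was lower in the 3 low-dentate libraries than in any other, and close to level in the other 6. Its relative Cnih3 stood at 19.4 to 27.6 FPKM over the 9 libraries, with groups that overlapped. The ratio of Cnih2 to Cnih3 was 4.99 to 7.16 in the 3 low-dentate libraries, against 9.63 to 13.1 in the other 6.

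**Figure D2:**
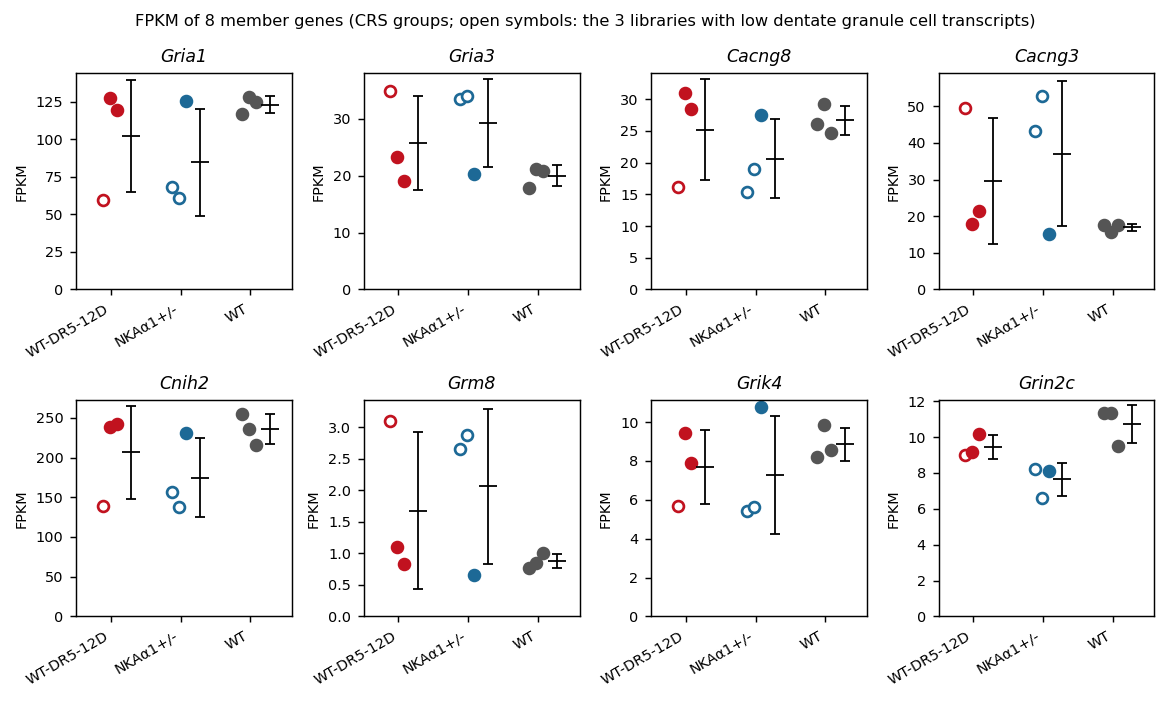
FPKM of 8 of the genes in each library, by group (CRS-WT-DR5-12D, CRS-NKAα1+/-, CRS-WT), with the mean and SD of 3 libraries as a bar beside the points and axes from 0. Open symbols mark the 3 low-dentate libraries, which lie apart from the filled ones in the first 7 panels (Gria1, for example, at 59.6 to 67.9 against 117 to 128 FPKM), while in Grin2c the CRS-NKAα1+/- points, open and filled, all lie below CRS-WT.

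Of the 6 NMDA receptor genes, Grin1 and Grin2a were those whose FPKM set the 3 low-dentate libraries apart. Grin1, the subunit that every NMDA receptor needs, stood at 44.2, 42.0 and 42.5 FPKM in CRS-WT-DR5-12D libraries 1 to 3, 54.9, 51.1 and 39.3 FPKM in CRS-NKAα1+/- and 39.2, 42.2 and 41.9 FPKM in CRS-WT. It was above the other 6 libraries in all 3 low-dentate ones, by little in CRS-WT-DR5-12D 1, and no longer so under TPM. Of its exon bases 13.5% are shared with Grin1os on the opposite strand, and without a stated strandedness their fragments cannot be told apart. Grin2b, the GluN2 subunit that predominates in early life, stood at 18.8 to 23.1 FPKM, and Grin2a, which joins it as synapses mature, was at 10.6 to 11.4 FPKM in the 3 low-dentate libraries, against 13.3 to 17.0 FPKM in the other 6. The ratio of Grin2a to Grin2b was 0.467 to 0.549 in the 3 low-dentate libraries, against 0.626 to 0.785 in the other 6. Grin2d, a GluN2 subunit known from interneurons, stood at 2.06 to 3.27 FPKM and shares 9.66% of its exon bases with an antisense gene. Grin3a, a glycine-binding subunit that lowers calcium entry, stood at 2.58 to 4.09 FPKM, and in neither were the 3 low-dentate libraries all above or all below the rest in FPKM, though under TPM they were all below in both, as they were in Grin2b and Grin2c.

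Grin2c, a GluN2 subunit best known from cerebellum and astrocytes, had the smallest p of the 32 genes. It stood at 8.98, 9.17 and 10.2 FPKM in CRS-WT-DR5-12D libraries 1 to 3, 8.24, 6.60 and 8.12 FPKM in CRS-NKAα1+/- and 11.3, 11.4 and 9.48 FPKM in CRS-WT. Every CRS-NKAα1+/- library was below every library of the other 2 groups, while CRS-WT-DR5-12D and CRS-WT overlapped. In FPKM the low-dentate libraries did not stand apart here, since CRS-NKAα1+/- 3 was at 8.12 FPKM and CRS-WT-DR5-12D 1 at 8.98 FPKM. The summed level of 6 astrocyte genes was 306 to 345 FPKM in CRS-WT-DR5-12D, 363 to 440.0 FPKM in CRS-NKAα1+/- and 393 to 471 FPKM in CRS-WT. That order is the one of Gfap, with means of 52.8, 117 and 160 FPKM in these groups. Aqp4 (20.7, 16.6 and 24.5 FPKM) and Gja1 (16.5, 15.7 and 18.2 FPKM) had their lowest mean in CRS-NKAα1+/-. Aldh1l1, Slc1a2 and Slc1a3 had their highest mean there. The part of astrocyte content in the Grin2c values was not tested. The gene (ENSMUSG00000020734, chromosome 11, 115249169 to 115267243, minus strand of GRCm38) was represented by 650 to 1558 fragments per library.

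Kainate receptor genes held a nearly constant summed level in FPKM, within which single subunits exchanged places. The sum was 54.8 to 61.2 FPKM in the 3 low-dentate libraries and 55.7 to 62.8 FPKM in the other 6. Under TPM, Grik1, Grik2, Grik4 and Grik5 were below the other 6 in all 3 low-dentate libraries, as were 43.5% of all genes. Grik5, a high-affinity subunit that needs partners to form channels, led the family with 37.0, 33.2 and 39.2 FPKM in CRS-WT-DR5-12D, 39.3, 34.8 and 36.9 FPKM in CRS-NKAα1+/- and 38.3, 38.3 and 39.7 FPKM in CRS-WT, and the groups overlapped. Its relative Grik4, known from CA3 and dentate neurons, was at 5.41 to 5.67 FPKM in the 3 low-dentate libraries, against 7.91 to 10.8 FPKM in the other 6, while Grik3, one of the subunits that can form channels alone, was at 8.17 to 11.7 FPKM in the 3 low-dentate libraries, against 3.87 to 5.77 FPKM in the other 6. Grik4 kept that position under TPM and Grik3 did not, while the ratio of Grik4 to Grik3, the same in FPKM and TPM, was 0.485 to 0.676 in the 3 low-dentate libraries, against 1.44 to 2.33 in the other 6. Grik2, the main channel-forming subunit of hippocampal kainate receptors, stood at 4.61 to 6.59 FPKM with overlapping libraries. Grik1, a subunit of interneuron receptors, was at 1.43 to 1.96 FPKM in the 3 low-dentate libraries, against 1.99 to 3.07 FPKM in the other 6, a gap that closed after quantile normalization.

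Among the metabotropic receptors, Grm5 and Grm3 had the highest means over the 9 libraries, and their order depended on the library. Grm2 was above Grm3 in all 3 CRS-WT libraries, by little in CRS-WT 2 and 3, and in CRS-WT-DR5-12D 3. Grm5, which is coupled to calcium release at the edge of the postsynaptic density, stood at 16.6, 22.2 and 17.5 FPKM in CRS-WT-DR5-12D libraries 1 to 3, 14.6, 14.1 and 17.6 FPKM in CRS-NKAα1+/- and 15.6, 19.8 and 18.4 FPKM in CRS-WT. Grm3, which lowers cyclic AMP and is found in both neurons and astrocytes, stood at 25.9, 15.3 and 12.3 FPKM in CRS-WT-DR5-12D, 19.3, 21.7 and 10.1 FPKM in CRS-NKAα1+/- and 11.03, 10.9 and 10.5 FPKM in CRS-WT. The ratio of Grm5 to Grm3 was 0.641 to 0.756 in the 3 low-dentate libraries, against 1.41 to 1.82 in the other 6. In Grm3 every CRS-WT-DR5-12D library also lay above every CRS-WT library, though CRS-WT-DR5-12D 3 did so by little. Grm2, the relative of Grm3 on presynaptic terminals, stood at 8.27 to 14.4 FPKM, overlapped between all groups and shares 9.6% of its exon bases with an antisense gene.

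The 3 receptors that act mostly as presynaptic brakes on release were lower. Grm7, the one of lowest affinity for glutamate, stood at 7.86 to 9.52 FPKM and was the steadiest of them. Grm8 had the widest range of all 32 genes, with 3.11, 1.10 and 0.830 FPKM in CRS-WT-DR5-12D, 2.66, 2.88 and 0.652 FPKM in CRS-NKAα1+/- and 0.776, 0.855 and 1.002 FPKM in CRS-WT. The 3 low-dentate libraries were high and the other 6 near 1 FPKM or below, also under TPM and after quantile normalization, and the gene was represented by only 128 to 806 fragments. Grm4 stood at 0.933 to 2.08 FPKM, from 121 to 266 fragments, with CRS-NKAα1+/- 3 the lowest library. Grid1, the delta subunit that links postsynaptic membrane to presynaptic neurexin through cerebellin, stood at 9.27, 9.07 and 9.61 FPKM in CRS-WT-DR5-12D libraries 1 to 3, 7.79, 8.43 and 8.88 FPKM in CRS-NKAα1+/- and 9.20, 9.28 and 10.1 FPKM in CRS-WT, with every CRS-NKAα1+/- library below every one of the other 2 groups by a small margin.

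**Figure D3:**
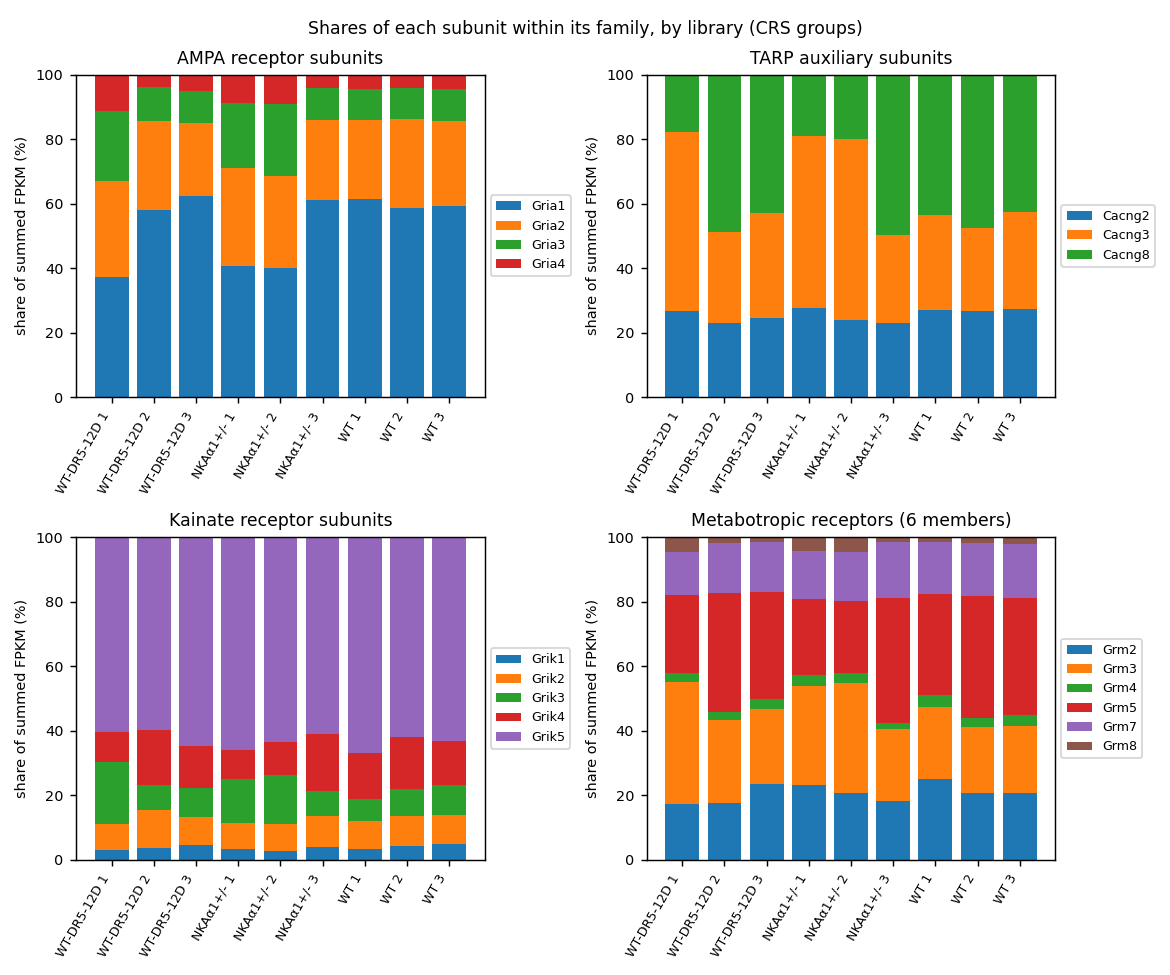
Share of each subunit in the summed FPKM of its family (percent, bars stacked to 100) in the 9 libraries, by group, for AMPA subunits, TARPs, kainate subunits and metabotropic receptors. In CRS-WT-DR5-12D 1 and CRS-NKAα1+/- 1 and 2, Gria1 makes up between 37.4 and 40.6% of the AMPA subunits and Cacng3 takes between 53.6 and 55.9% of the TARPs, while Grik5 holds between 59.7 and 66.9% of the kainate subunits in all 9 libraries.

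No scaffold gene ranged over more than 1.61 times across the 9 libraries, the value for Homer2. Dlg4, the central scaffold of the postsynaptic density, stood at 142, 114 and 128 FPKM in CRS-WT-DR5-12D, 136, 136 and 105 FPKM in CRS-NKAα1+/- and 120.4, 114 and 113 FPKM in CRS-WT. Shank1 stood at 37.9 to 55.6 FPKM, and Shank2 at 15.3, 11.7 and 14.5 FPKM in CRS-WT-DR5-12D, 17.8, 17.2 and 13.6 FPKM in CRS-NKAα1+/- and 12.7, 13.9 and 12.7 FPKM in CRS-WT. Shank3, which is linked to autism in people as are its relatives, stood at 15.7, 17.4 and 19.0 FPKM in CRS-WT-DR5-12D, 19.7, 17.2 and 16.3 FPKM in CRS-NKAα1+/- and 21.3, 19.4 and 18.7 FPKM in CRS-WT. Homer2, which ties Shank proteins to Grm5, was at 5.66 to 6.73 FPKM in the 3 low-dentate libraries, against 4.20 to 5.24 FPKM in the other 6. Dlg4 and Shank2 were likewise above the other 6 libraries in all 3 low-dentate ones, and under TPM none of Dlg4, Shank2 and Homer2 was. Within the Shank family, Shank1 made up 55.9 to 61.3% in all 9 libraries. Shank2 made up 18.3 ± 1.01% in CRS-WT-DR5-12D, 19.6 ± 0.456% in CRS-NKAα1+/- and 15.8 ± 0.969% in CRS-WT (SD, n = 3 each). Every library of the first 2 groups was above every CRS-WT library in this share. The Shank shares were not planned, and how often a share parts the groups in this way was not tested.

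Taken over the 32 genes, 12 lay above the other 6 libraries in all 3 low-dentate ones, where 13.5% of all genes did, and 6 lay below, where 11.6% of all genes did. The 12 were Gria3, Gria4, Grin1, Grik3, Grm3, Grm4, Grm8, Cacng2, Cacng3, Dlg4, Shank2 and Homer2, and the 6 were Gria1, Grin2a, Grik1, Grik4, Cacng8 and Cnih2. After rescaling to TPM the counts were 3 above (3.12% of all genes) and 17 below (43.5%), and after quantile normalization 12 and 5 (12.1% and 12.7%). Under all 3 scalings Grm3, Grm8 and Cacng3 were above and Gria1, Grin2a, Grik4, Cacng8 and Cnih2 below. Over the 9 libraries the highest value was a median of 1.605 times the lowest for the 32 genes, and 9 of 32 (28.1%) ranged over more than 2 times, beside 31.1% of all genes tested that were above 0 throughout. Within the other 6 libraries that median was 1.30 and 0 of 32 ranged over more than 2 times, where 17.7% of all genes did. What set these 3 libraries apart was not tested.

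Promoter sequence is shown for 3 of the genes whose levels are described above, Grin2c with the smallest p, Cnih2 as one that lay below in the low-dentate libraries and Grik3 as one that lay above in FPKM but not under TPM. Each run covers 250 bases before and 50 after the start of the RefSeq transcript, which lies 0, 0 and 4 bases from the nearest start of a coding transcript in GENCODE vM21 for these genes in that order. Capitals mark GGGCGG on the printed strand or CCGCCC, its reverse complement, the core of the GC box bound by Sp factors.
Grin2c, GRCm38.p6, chr11:115267194-115267493, minus strand: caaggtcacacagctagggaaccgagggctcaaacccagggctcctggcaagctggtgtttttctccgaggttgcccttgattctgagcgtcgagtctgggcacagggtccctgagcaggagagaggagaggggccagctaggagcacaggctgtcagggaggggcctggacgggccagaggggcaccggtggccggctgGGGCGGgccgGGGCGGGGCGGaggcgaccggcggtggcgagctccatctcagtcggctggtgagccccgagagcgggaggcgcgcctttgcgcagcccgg
Cnih2, GRCm38.p6, chr19:5098472-5098771, minus strand: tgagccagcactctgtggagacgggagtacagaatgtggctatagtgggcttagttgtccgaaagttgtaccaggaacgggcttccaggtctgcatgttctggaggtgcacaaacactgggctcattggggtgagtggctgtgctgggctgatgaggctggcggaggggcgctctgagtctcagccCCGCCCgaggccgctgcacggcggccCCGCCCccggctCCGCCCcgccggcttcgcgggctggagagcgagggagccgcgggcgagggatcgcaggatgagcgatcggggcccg
Grik3, GRCm38.p6, chr4:125490446-125490745, plus strand: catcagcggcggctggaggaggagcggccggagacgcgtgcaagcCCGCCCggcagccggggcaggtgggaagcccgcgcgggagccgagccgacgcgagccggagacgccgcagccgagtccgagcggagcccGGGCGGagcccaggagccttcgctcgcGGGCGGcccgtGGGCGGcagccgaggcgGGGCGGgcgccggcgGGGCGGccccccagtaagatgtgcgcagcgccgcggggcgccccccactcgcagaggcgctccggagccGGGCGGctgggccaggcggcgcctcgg
The 3 promoters held 3, 3 and 7 matches, of which 2 in Grin2c overlap, and were 70.0, 67.3 and 82.0% G and C. Of all 32851 mouse promoters of this length 35.66% held the motif on either strand, as did at least 1 promoter of 14 of the 21 genes that had an entry. These genes have 27 promoters, so a count by gene and a share of promoters are unlike measures. Other motifs searched in the same way were CAGCTG (4 of 21 genes, 16.3% of promoters), TGACG (4 of 21, 20.81%) and TGACGTCA (0 of 21, 1.79%).

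The comparison of CRS-NKAα1+/- with CRS-WT asks whether glutamate receptor transcripts differ when 1 copy of NKAα1 is lost. Grin2c averaged 7.66 ± 0.916 FPKM in CRS-NKAα1+/- and 10.7 ± 1.07 FPKM in CRS-WT, and Grid1 averaged 8.37 ± 0.549 FPKM in CRS-NKAα1+/- and 9.53 ± 0.499 FPKM in CRS-WT (SD, n = 3 each). Neither passed the adjusted threshold. The log2 fold change was −0.44 ± 0.10 for Grin2c (SE, limma p 0.00255, adjusted p 0.202) and −0.17 ± 0.069 for Grid1 (limma p 0.0388, adjusted p 0.341). These 2 of 32 had an unadjusted p under 0.05, beside 14.1% of all genes, and they were also the 2 whose groups did not overlap, below in both, where 10% of all genes lay below and 10.9% above. Next came Shank2 at 0.28 ± 0.12 (limma p 0.0522, adjusted p 0.357), with overlapping groups and a difference of −0.18 after rescaling to TPM.

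Over the 32 genes the median difference was 0.02, with 17 higher and 15 lower, beside 0.0091 for all genes. The widest differences were those of Cacng3, 0.91 ± 0.48, Grm8, 0.61 ± 0.38, and Gria1, −0.61 ± 0.33, none of which passed, and each had an error of more than 0.3 on the log2 scale. By subset, 2 of 4 AMPA genes, 4 of 6 NMDA, 1 of 5 kainate and 4 of 6 metabotropic genes were higher, as were 3 of 5 auxiliary and 3 of 5 scaffold genes, counts that rest on the scaling, since under TPM 4 of the 32 were higher. The summed level of 7 oligodendrocyte genes was 464 to 878 FPKM in CRS-WT-DR5-12D, 269.7 to 471 FPKM in CRS-NKAα1+/- and 609.5 to 836 FPKM in CRS-WT, and that of 6 microglia genes was 146 to 184 FPKM in CRS-WT-DR5-12D, 299.9 to 438 FPKM in CRS-NKAα1+/- and 234 to 307 FPKM in CRS-WT, and their part in these values was not tested. Without CRS-NKAα1+/- 3, which leaves 2 low-dentate libraries in that group, 17 of 32 had an unadjusted p under 0.05, beside 25.8% of all genes, and 0 passed after adjustment. Without CRS-WT-DR5-12D 1, which enters only through the shared spread, 5 of 32 did, beside 17.4% of all genes. Leaving out CRS-NKAα1+/- 2, CRS-WT 2 or CRS-WT 3 gave 1 of 32 each time, beside 1300, 1729 and 1892 of all 17753 genes in that order.

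Without the 3 low-dentate libraries CRS-NKAα1+/- has 1 library, assumed in the fit to vary like the others, and the widest differences were smaller. Gria1 was then at 0.03, Cnih2 at −0.028 and Cacng3 at −0.16, against −0.61, −0.46 and 0.91 over all 9. Grin2c was at −0.36 (limma p 0.0309, adjusted p 0.495) and Grid1 was at −0.09. In that fit 6 of 32 genes had an unadjusted p under 0.05, all lower, beside 8.93% of all genes: Shank1 at −0.39, Cacng2 at −0.32, Grm4 at −0.45, Grm2 at −0.40, Grin2c and Shank3 at −0.26. None of the 32 passed, where 0.231% of all genes did, and the median of the 32 was −0.066.

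Scaling matters most in this comparison. TPM divides each library by its summed FPKM, which ran from 336555 to 540317 and of which a single gene, Gm23935 or Gm42418, took 4.81 to 37.9%. In libraries 1 to 3 that share was 6.06, 4.81 and 19.3% in CRS-WT and 37.9, 37.6 and 28.6% in CRS-NKAα1+/-. In CRS-WT-DR5-12D it was 33.5, 26.5 and 31.6%. The share was thus lowest in CRS-WT and highest in the low-dentate libraries. Its part in the TPM results was not tested. Under TPM the median of all genes moved to −0.42 in CRS-NKAα1+/- against CRS-WT, to −0.33 for CRS-WT-DR5-12D over CRS-WT and to 0.10 in CRS-WT-DR5-12D against CRS-NKAα1+/-. On that scale 15 of 32 genes passed as lower in CRS-NKAα1+/-, where 41.4% of all genes did, and the median of the 32 was −0.42, the same as the shift of all genes. The 15 were Gria2, Grin2a, Grin2b, Grin2c, Grik1, Grik5, Grm2, Grm5, Grm7, Grid1, Cnih2, Dlg4, Shank1, Shank3 and Homer2. Grin2c at −0.92 and Grid1 at −0.64 lay below that shift. The F-test under TPM passed 5 of 32, where 9.86% of all genes passed.

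The comparison of CRS-WT-DR5-12D with CRS-WT asks whether these transcripts differ in wild-type mice labelled with DR5-12D. The median difference over the 32 genes was 0.049, with 19 higher and 13 lower, beside 0.0071 for all genes. Single genes ranged from −0.34 ± 0.33 for Gria1 to 0.63 ± 0.48 for Cacng3. None of the 32 had an unadjusted p under 0.05, where 13% of all genes did. The 3 genes with the smallest p were Grm3 at 0.61 ± 0.31 (limma p 0.0813, adjusted p 0.441), Shank3 at −0.18 ± 0.10 (limma p 0.0903, adjusted p 0.455) and Grin2c at −0.16 ± 0.10 (limma p 0.150, adjusted p 0.531). Grm3 averaged 17.8 ± 7.16 FPKM in CRS-WT-DR5-12D and 10.8 ± 0.270 FPKM in CRS-WT, and Shank3 averaged 17.3 ± 1.64 FPKM in CRS-WT-DR5-12D and 19.8 ± 1.38 FPKM in CRS-WT (SD, n = 3 each).

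In Grm3 and Cacng3 every CRS-WT-DR5-12D library was above every CRS-WT library, 2 of 32 where 11.4% of all genes were so placed, and 0 of 32 were wholly below, again beside 11.4% of all genes. All 6 metabotropic receptors had positive differences, from 0.0088 for Grm4 to 0.61 for Grm3, none past the threshold, but under TPM only 4 of all 32 genes were positive. Without CRS-WT-DR5-12D 3, 2 of 32 had an unadjusted p under 0.05, beside 13.3% of all genes. Leaving out CRS-NKAα1+/- 3 gave 1 of 32, beside 2545 of all 17753 genes. Without the 3 low-dentate libraries 2 of 32 did as well, beside 14.1% of all genes: Shank1 at −0.28 (limma p 0.0114, adjusted p 0.219) and Grm3 at 0.32 (limma p 0.0181, adjusted p 0.254). None passed, where 0.0338% of all genes did, and Cacng3 was at 0.20 in place of 0.63. Under TPM 1 of 32, Shank1, passed as lower, where 5.33% of all genes did, and the median of the 32 was −0.31.

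The comparison of CRS-WT-DR5-12D with CRS-NKAα1+/- sets these 2 groups against each other. Grin2c was at 9.44 ± 0.643 FPKM in CRS-WT-DR5-12D and 7.66 ± 0.916 FPKM in CRS-NKAα1+/-, a difference of 0.27 ± 0.10 (limma p 0.028, adjusted p 0.454), and was the only one of 32 with an unadjusted p under 0.05, where 8.83% of all genes had one. Next were Grid1 at 0.14 ± 0.069 (limma p 0.0745, adjusted p 0.636) and Grm5 at 0.26 ± 0.13 (limma p 0.0837, adjusted p 0.650). In Grin2c and Grid1 every CRS-WT-DR5-12D library was above every CRS-NKAα1+/- library, 2 of 32 beside 5.35% of all genes, and 0 of 32 were wholly below, beside 7.15%. The median of the 32 was 0.028, with 18 higher and 14 lower, beside 0.0065 for all genes. The 3 comparisons share groups, so the low values of Grin2c in CRS-NKAα1+/- enter 2 of them.

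Single libraries moved this count. Without CRS-NKAα1+/- 3, 6 of 32 had an unadjusted p under 0.05, beside 16.3% of all genes, and without CRS-WT-DR5-12D 1, 4 of 32 did, beside 13% of all genes. Leaving out CRS-NKAα1+/- 2 or CRS-WT-DR5-12D 3 gave 0 of 32, beside 1212 and 1496 of all 17753 genes in that order. Without the 3 low-dentate libraries 5 of 32 did, beside 6.93% of all genes, all higher in CRS-WT-DR5-12D than in the 1 CRS-NKAα1+/- library left: Grm2 at 0.43, Grm3 at 0.40, Grm4 at 0.40, Cacng3 at 0.36 and Cacng2 at 0.25. None passed, where 0.535% of all genes did. Grin2c was then at 0.22 (limma p 0.146, adjusted p 0.887). These values rest on CRS-NKAα1+/- 3, in which Grm2, Grm3, Grm4, Cacng2 and Cacng3 each had their lowest level of the 9 libraries.

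**Figure D4:**
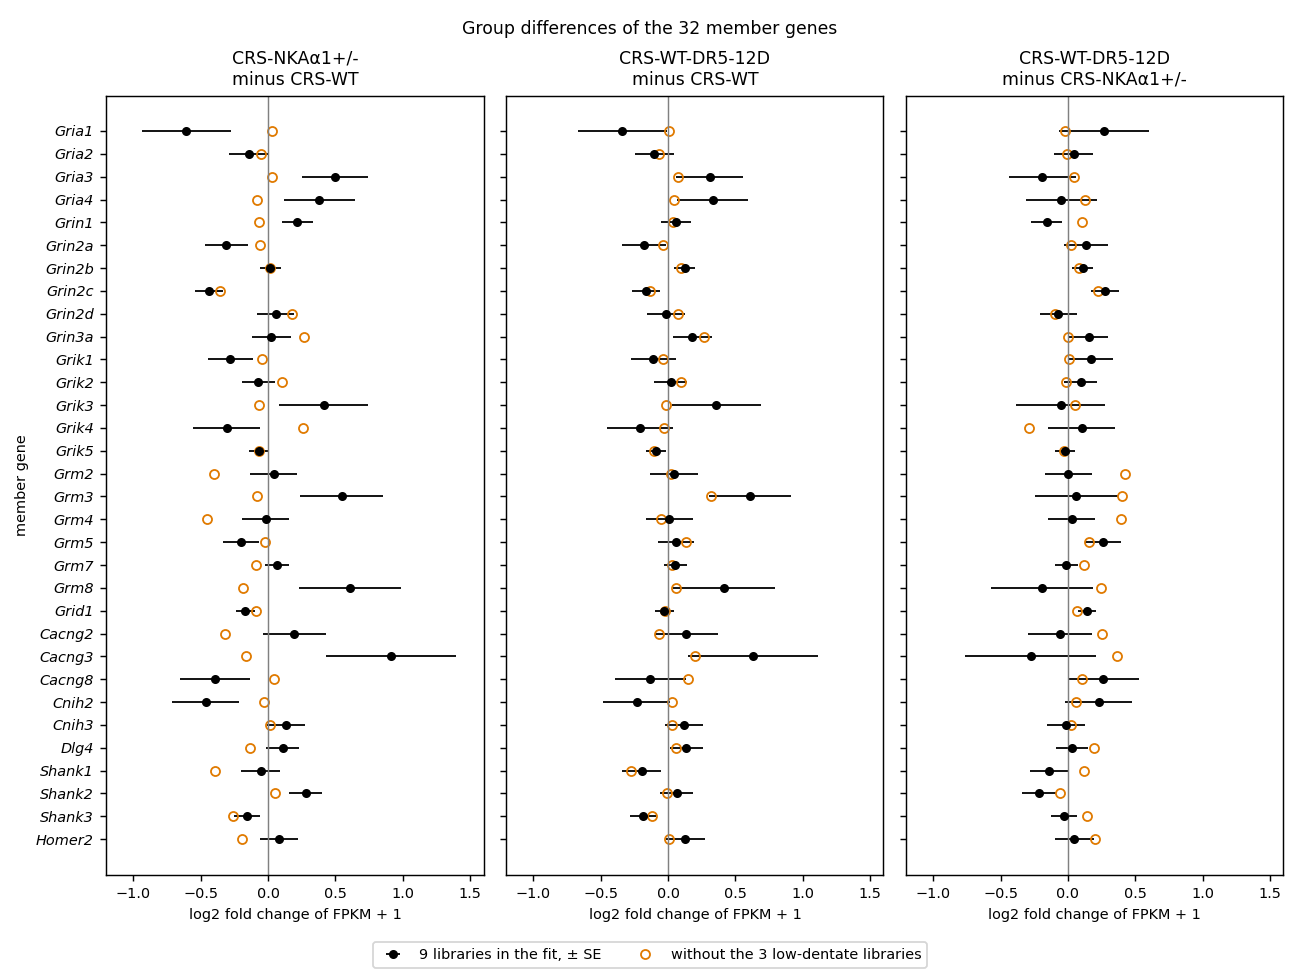
Log2 fold change of FPKM + 1 for the 32 genes (down the page) in the 3 comparisons, the first-named group minus the second, with all 9 libraries (black, bars ± SE) and without the 3 low-dentate libraries (open orange). With all 9, the widest differences between CRS-NKAα1+/- and CRS-WT are Cacng3 at 0.91 and Gria1 at −0.61, and without the 3 libraries they are −0.16 and 0.03, while Grin2c is at −0.44 and −0.36.

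Other genes of the pathway were taken from 4 lists, none of whose tested genes passed in any comparison. Of the 13 further auxiliary proteins, 6 were higher and 7 lower in CRS-NKAα1+/- set against CRS-WT, beside 9210 of 17753 higher over all genes. Shisa7, an auxiliary protein of AMPA and GABA receptors, stood at 26.1, 26.6 and 29.1 FPKM in CRS-WT-DR5-12D, 32.1, 29.9 and 28.6 FPKM in CRS-NKAα1+/- and 25.7, 24.9 and 24.7 FPKM in CRS-WT, with CRS-NKAα1+/- 1 and 2 above all other libraries and a difference from CRS-WT of 0.26 ± 0.068 (limma p 0.0049, adjusted p 0.238), or 0.18 without the 3 low-dentate libraries. Shisa6, an AMPA receptor partner of the same family, was at 1.08 to 1.29 FPKM in the 3 low-dentate libraries, against 12.5 to 15.9 FPKM in the other 6. Neto2, an auxiliary subunit of kainate receptors, stood at 3.30 to 5.94 FPKM.

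Of 22 further entries for postsynaptic scaffold and signalling genes, 16 were higher and 6 lower in CRS-NKAα1+/- when set against CRS-WT, with a median of 0.12, beside 9210 of 17753 higher over all genes. The median turned to −0.045 without the 3 low-dentate libraries. In FPKM, 12 of the 22 entries were above all others in these 3, where 13.5% of all genes were. Another 4 of the 22 were below, where 11.6% of all genes were. Both entries of Dlg2 were among the 12. Under TPM 3.12% of all genes were above and 43.5% below. Camk2b, a subunit of the calcium-dependent kinase of plasticity, was at 77.7 to 82.1 FPKM in the 3 low-dentate libraries, against 115 to 136 FPKM in the other 6, and differed by −0.52 ± 0.20 between CRS-NKAα1+/- and CRS-WT (limma p 0.0296, adjusted p 0.328), or by −0.11 without the 3 libraries. Dlg2, a relative of Dlg4, has 2 identifiers, of which ENSMUSG00000052572 differed by 0.34 ± 0.15 (limma p 0.0489, adjusted p 0.354), or by 0.19 without the 3 libraries, which were its highest. Lrrtm2, a synaptic adhesion protein, differed by 0.40 ± 0.16 in CRS-WT-DR5-12D over CRS-WT (limma p 0.0352, adjusted p 0.343), or by 0.23 without them, with its highest value in CRS-WT-DR5-12D 1.

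Of the 10 genes of receptor trafficking and clustering, 9 were higher in CRS-WT-DR5-12D and 7 in CRS-NKAα1+/-, each set against CRS-WT. Over all genes 9164 and 9210 of 17753 were higher, in that order. In both comparisons 0 of the 10 had an unadjusted limma p under 0.05. Such counts rest on the scaling, since under TPM the medians of all genes were −0.33 and −0.42. Nptx2, a pentraxin that clusters AMPA receptors, was at 18.3 to 29.5 FPKM in the 3 low-dentate libraries, against 5.42 to 7.70 FPKM in the other 6, and Arc, which drives their removal from the surface, was at 62.8 to 118 FPKM in the 3 low-dentate libraries, against 20.8 to 41.6 FPKM in the other 6. Nptxr, the receptor form of the pentraxins, stood at 129.8 to 175 FPKM. Of 8 tested genes of glutamate transport and metabolism, 4 were higher in CRS-WT-DR5-12D and 6 in CRS-NKAα1+/- on the same footing, where the median of the CRS-NKAα1+/- differences turned from positive to −0.093 without the 3 libraries. Slc17a6, a vesicular glutamate transporter, was at 0.679 to 1.29 FPKM in the 3 low-dentate libraries, against 1.57 to 3.10 FPKM in the other 6, and Glul, which makes glutamine in astrocytes, stood at 434 to 569.9 FPKM.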

How the data were processed

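Bulk RNA-seq values of 9 mouse ventral hippocampus libraries were used, as 1 table of FPKM deposited by the authors. Per the submitters' processing notes, cutadapt, HISAT2 and RSEM 1.2.30 were used with GRCm38, and per the labels' protocols RNA was taken with TRIzol and fragments were selected by size. Neither strandedness nor annotation release is given in the sources used here. GENCODE vM21 supplied lengths and positions, and RefSeq (GRCm38.p6) the promoters. The 32 genes and all lists were chosen with earlier results of these data known.

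The 17753 genes whose mean reached 0.5 FPKM, of 35485 above 0, were fitted as log2(FPKM + 1), a pseudocount of 1 that understates changes of low genes, with limma 3.58.1 in R 4.3.3, all 9 libraries in 1 fit with a mean trend, moderated tests that were two-sided, and an F-test. The fit was tested on simulated data. Not every same-numbered pair of libraries deviated together, so the numbers were not taken to pair them. Values are mean ± SD of 3 libraries, and log2 fold changes carry an SE. Fragments were recovered from the FPKM within 0.02 of a whole number for 16218 of the 17753 genes. The annotated exon length was used, except for Cnih2, Dlg4, Grm4 and Shank3 of the 32 genes. These needed another length, taken as the shortest that gave whole fragments in all 9 libraries. Full statistics were given for genes with an unadjusted p under 0.05 or, if fewer than 3, the 3 smallest, library values for these and the most abundant gene of each subset, and, in other lists, up to 3 genes by F-test p. Library values of Gria2, Gria3, Gria4, Cacng3, Cacng8, Grm8, Shank2 and Shisa7, the ratios and the promoters were chosen after values were seen. Shares within the Shank family were not planned. Alternatives were a pseudocount of 0.1, no filter or a mean FPKM of at least 2, TPM, quantile normalization, 2 groups only, a replicate block, limma-voom on recovered fragments, each library left out and, chosen after seeing the data, the 3 low-dentate libraries left out. The NKAα1 gene itself and some genes of the other lists are not reported here. Python 3.11.15, pandas 2.3.3 and matplotlib 3.10.9 were also used.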

Additional observations from a re-analysis of the deposited data

How the results depend on the processing

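None of the 32 genes passed the adjusted threshold in any comparison under a pseudocount of 0.1, no filter, a mean FPKM of at least 2, quantile normalization, 2 groups only, the replicate block, limma-voom, or with any library or the 3 low-dentate libraries left out. TPM was the exception: it called 15 in CRS-NKAα1+/- against CRS-WT, 1 for CRS-WT-DR5-12D over CRS-WT, and 5 by the F-test. The medians of the 32 genes under TPM were −0.42, −0.31 and, for CRS-WT-DR5-12D against CRS-NKAα1+/-, 0.14. Shank2 turned to −0.18 in CRS-NKAα1+/- against CRS-WT, while Grin2c at −0.92 and Grid1 at −0.64 passed (limma adjusted p 0.0284 for both). TPM divides by a sum of which 1 gene took 4.81 to 37.9%, with every CRS-WT library below every library of the other groups.

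Over all genes, CRS-NKAα1+/- against CRS-WT called 4 genes, and 0 with no filter, 7451 under TPM, 2 with limma-voom, 41 without the 3 low-dentate libraries and 0 to 25 with 1 library left out. CRS-WT-DR5-12D against CRS-WT called 5, and 0 with no filter, 975 under TPM, 0 with limma-voom, 41 with 2 groups only and 0 to 21 with 1 library left out. CRS-WT-DR5-12D against CRS-NKAα1+/- called 91, and 30 with no filter, 5 with 2 groups only and 1 to 194 with 1 library left out. The causes of these changes between settings were not tested. The median of the 32 genes was −0.066 in CRS-NKAα1+/- against CRS-WT without the 3 low-dentate libraries, and −0.080 to 0.075 in CRS-WT-DR5-12D against CRS-NKAα1+/- with 1 library left out.

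Replicate numbers are shared by the groups, and the correlation of same-numbered libraries was −0.023, 0.0062 and −0.011 between CRS-NKAα1+/- and CRS-WT, −0.080, 0.032 and 0.039 for CRS-WT-DR5-12D with CRS-WT, and 0.45, −0.35 and 0.50 between CRS-WT-DR5-12D and CRS-NKAα1+/-, so that not every pair deviated together. A replicate block gave 0, 0 and 40 calls over all genes in these comparisons. Depth limits the low genes most: Grm4 and Grm8 had as few as 121 and 128 fragments.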
